A study of Mus musculus with 18 samples.

Results

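The Hox cluster genes were measured in 18 mouse mammary tumors as all 39 protein-coding genes whose GENCODE symbol is Hoxa, Hoxb, Hoxc or Hoxd followed by a number, out of 57126 genes in the count table. The HoxA cluster on chromosome 6 holds 11 of them, HoxB on chromosome 11 holds 10, HoxC on chromosome 15 holds 9 and HoxD on chromosome 2 holds 9. Hox genes encode homeodomain transcription factors that give cells of the embryo their position along the body axis. Within a cluster they lie in the order in which they act, from the paralog numbers used nearest the head to those used nearest the tail, and genes of the same number in different clusters are paralogs. Polycomb complexes keep clusters silent where they are not used, trithorax complexes and retinoic acid act the other way, and Pbx and Meis proteins bind DNA together with Hox proteins. In the mammary gland, several Hox genes are expressed in the epithelium and in the stroma.

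The tumors were 7 MaP R172H/-, 5 MaP R245W/- and 6 MaP -/- tumors. MaP is the study's name for mice in which adenovirus carrying Cre recombinase was injected into the mammary gland, so that tumors start from cells with a Trp53 R172H or R245W missense allele over a null allele, or with both alleles lost. The females were F1 animals of a BALB/c by C57BL/6J cross, injected between 10 and 12 weeks of age, and stroma and immune cells of the tumor keep wild-type p53. Tumor names follow the labels, and the study's text numbers 3 of them otherwise, YZ7, JM779-T1 and JM836-T1, so that which tumor of the mouse the last 2 are is in doubt. The MaP -/- tumors came from 4 mice, since JM663 and JM833 gave 2 each, and the other tumors came from 1 mouse each. Of the tumors, 3 of 7 MaP R172H/-, 3 of 5 MaP R245W/- and 0 of 6 MaP -/- also carried the Rosa26 LSL-TdTomato reporter allele. All MaP R172H/- libraries were read on another sequencer and at another read length than the rest, so genotype and platform cannot be told apart in the comparisons with that group. The study classed MaP R172H/- tumors as luminal B or HER2-enriched and the others as triple-negative, which divides the tumors in the same way. By histology it classed all 7 MaP R172H/- tumors as nonmetaplastic adenocarcinomas, while the other groups held both metaplastic and nonmetaplastic tumors. Histology thus follows genotype in part. JM1126 was classed as a nonmetaplastic sarcoma.

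Total counts per tumor ran from 23113578 to 37365062. All 12 epithelial markers, keratins among them, were counted in every group, but their mean log2(CPM + 0.5) was 3.10 in YZ7, 3.46 in JM1233 and 2.45 in JM779-T1, against 6.19 to 9.37 in the other tumors. The mean of 15 skeletal muscle markers on the same scale was 6.16 in JM1233, 3.64 in JM1133 and 1.99 in JM1126, and at most 1.40 in the other tumors. In bulk tumor RNA, fewer cells of a type and less RNA per cell cannot be told apart.

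Levels are given as CPM (counts scaled to a common library size by TMM) per kb of exon, which allows genes of different length to be compared. The 39 genes together took 0.0010% of the counts in JM779-T1 and 0.0094% in JM833-T1, the lowest and highest shares of the 18 tumors. Of the 39 genes, 20 reached 1 CPM per kb in at least 1 tumor. Genes in the middle of the clusters were the most often detected: of the 15 genes with paralog numbers 4 to 8, 12 reached that level, against 3 of 8 genes numbered 1 to 3, 4 of 7 numbered 9 and 10, and 1 of 9 numbered 11 to 13. The single gene of the last class was Hoxb13. No tumor had more than 3 counts of Hoxa13, Hoxb1, Hoxc12, Hoxd1, Hoxd11, Hoxd12 or Hoxd13, the last of which had 0 counts in all 18. A count of 0 allows a level of up to 3 counts, which is between 0.0859 and 0.135 CPM depending on the tumor, counting error only.

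**Figure D1:**
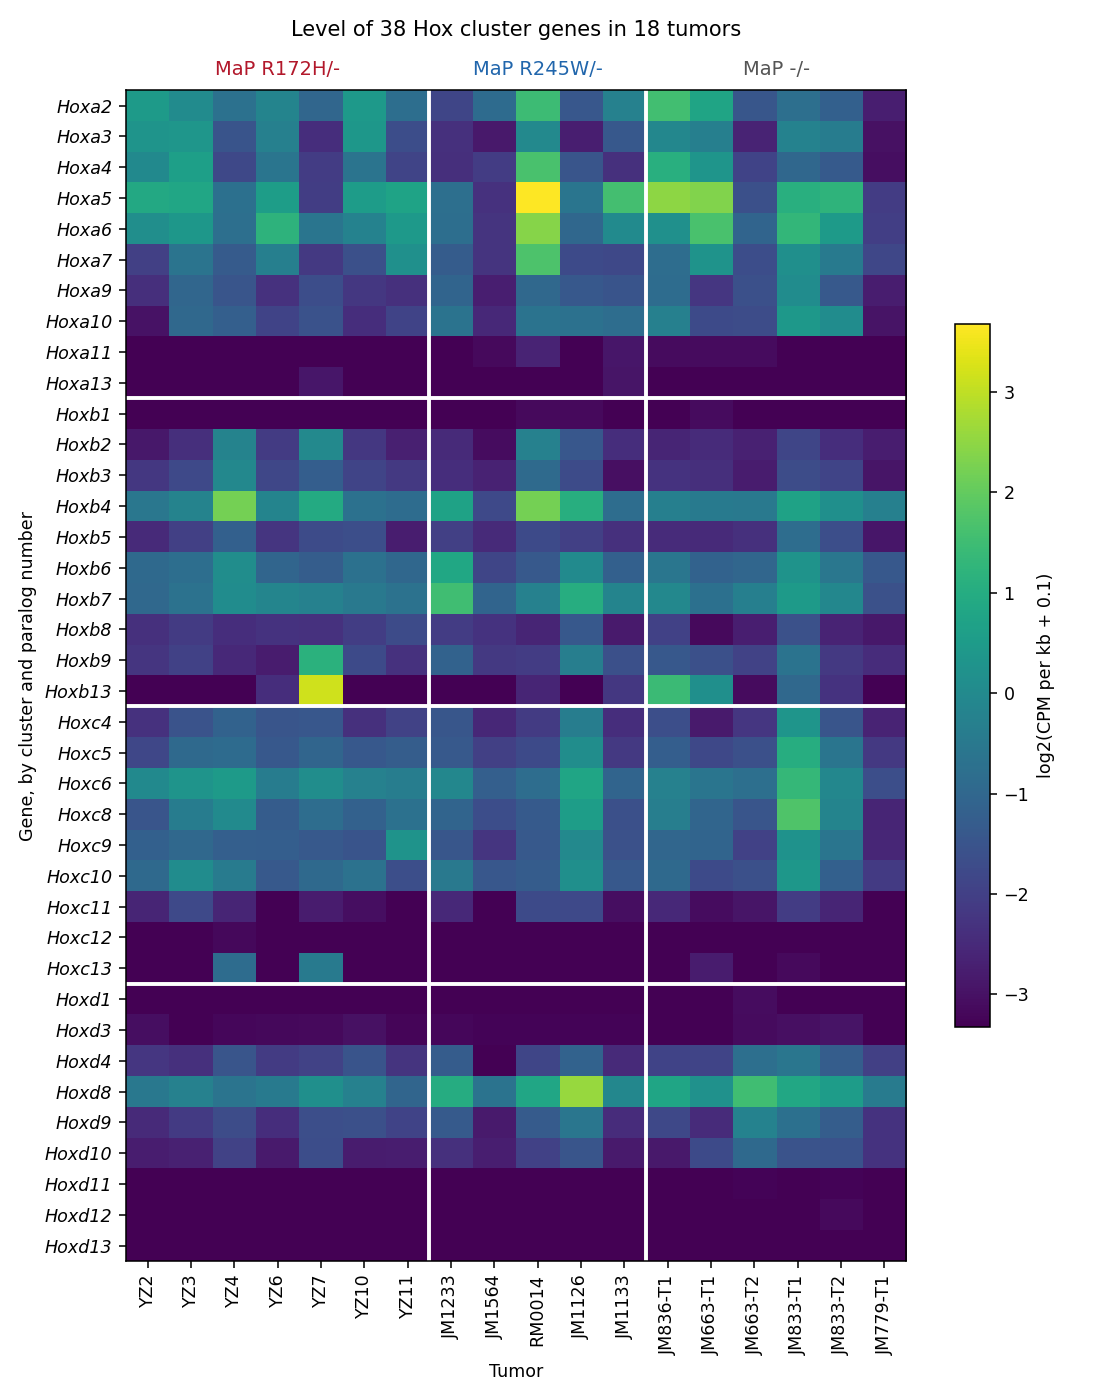
Heatmap of the level of 38 of the 39 Hox cluster genes (rows, by cluster and paralog number) in the 18 tumors (columns, by group), as log2(CPM per kb + 0.1). The genes numbered 11 to 13 are low in nearly all tumors, and high values stand in single tumors, such as Hoxa5 in RM0014 (12.6 CPM per kb) and Hoxb13 in YZ7 (8.92).

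The promoters of Hoxa5, Hoxb4 and Hoxd8 are shown because these genes had the highest median level over 18 tumors in HoxA, HoxB and HoxD, respectively, and Hoxd8 is also the gene that passed a test. The sequences are the 250 bases before the RefSeq transcription start, from a table on GRCm38.p6, each located in GRCm39 by 1 exact match, and CpG dinucleotides are in capitals.
Hoxa5, chr6:52181568-52181817, minus strand: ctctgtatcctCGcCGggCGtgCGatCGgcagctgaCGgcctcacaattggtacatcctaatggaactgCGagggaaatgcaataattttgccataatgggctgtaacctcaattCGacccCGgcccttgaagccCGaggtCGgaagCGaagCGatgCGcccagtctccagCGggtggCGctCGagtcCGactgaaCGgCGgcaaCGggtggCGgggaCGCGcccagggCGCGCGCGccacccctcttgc
Hoxb4, chr11:96208843-96209092, plus strand: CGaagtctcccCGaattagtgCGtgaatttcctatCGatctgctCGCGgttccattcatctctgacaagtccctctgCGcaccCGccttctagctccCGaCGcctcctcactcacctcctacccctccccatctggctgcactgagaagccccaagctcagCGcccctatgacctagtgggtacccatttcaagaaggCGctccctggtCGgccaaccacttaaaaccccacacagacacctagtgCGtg
Hoxd8, chr2:74534709-74534958, plus strand: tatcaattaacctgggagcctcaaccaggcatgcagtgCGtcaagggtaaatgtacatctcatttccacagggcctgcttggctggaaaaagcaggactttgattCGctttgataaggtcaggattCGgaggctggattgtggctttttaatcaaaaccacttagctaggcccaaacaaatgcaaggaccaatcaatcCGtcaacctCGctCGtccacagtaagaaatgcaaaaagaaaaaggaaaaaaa
Hoxa5 had 28 CpG in this window, Hoxb4 had 14 and Hoxd8 had 6. Of all 32851 promoters in the table, 7.61% held at least as many CpG as Hoxa5, 29.4% as many as Hoxb4 and 50.4% as many as Hoxd8. The table held 24 promoters of 22 of the 39 genes, with a median of 12.5 CpG (range 2 to 35) against 6 over all promoters. The Hox and Pbx composite motif TGATTNAT, searched on both strands, was found in 2 of the 24 (8.33%), 1 of Hoxa2 and 1 of the promoters of Hoxd11, and in 2.82% of all promoters. None of the 3 windows printed here held it.

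HoxA had the highest summed level of the clusters in 11 of 18 tumors, and Hoxa5 had its highest median. Hoxa5 (chr6:52178734-52181567, minus strand) encodes a factor of lung, axial skeleton and mammary development. Its level was 0.140 at the lowest, 1.37 at the median and 1.75 at the highest of the 7 MaP R172H/- tumors. In the MaP R245W/- tumors it was 0.492 in JM1233, 0.0987 in JM1564, 12.6 in RM0014, 0.561 in JM1126 and 2.91 in JM1133. In the 6 MaP -/- tumors it was 0.138 at the lowest, 2.13 at the median and 5.49 at the highest, the top value being that of JM836-T1, followed by 4.99 in JM663-T1. RM0014 stood above all other tumors, and each group held tumors under 0.25 CPM per kb. RM0014 was also the highest tumor for the neighbours Hoxa6 at 5.15, Hoxa4 at 3.09 and Hoxa7 at 3.18 CPM per kb, a run of 4 genes on chromosome 6. Beyond that run, Hoxa3 in RM0014 was 0.881, and Hoxa2 was 2.65, below JM836-T1 alone at 2.82. Hoxa9 in RM0014 was 0.416, within the range of the other tumors. Hoxa2, Hoxa4, Hoxa7 and Hoxa9 were chosen after their values were seen.

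Hoxa6, the neighbour of Hoxa5 and likewise a gene of the trunk skeleton, was 0.492 at the lowest, 0.987 at the median and 2.19 at the highest of the MaP R172H/- tumors. In MaP R245W/- tumors its level was 0.477 in JM1233, 0.106 in JM1564, 5.15 in RM0014, 0.402 in JM1126 and 0.917 in JM1133. The level in MaP -/- tumors was 0.148 at the lowest, 1.17 at the median and 3.07 at the highest, with the top in JM663-T1. The 3 groups overlapped, and RM0014 was the only tumor above 3.1 CPM per kb.

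Hoxa3, a factor of thymus and neck development, was 0.0891 at the lowest, 0.726 at the median and 1.21 at the highest of the MaP R172H/- tumors, and YZ2, YZ3 and YZ10 were the 3 tumors above 1 CPM per kb. Its level in MaP R245W/- tumors was 0.0951 in JM1233, 0.0403 in JM1564, 0.881 in RM0014, 0.0510 in JM1126 and 0.282 in JM1133. Across the MaP -/- tumors it was 0.0234 at the lowest, 0.690 at the median and 0.851 at the highest. All 3 groups overlapped. Of the exon bases of Hoxa3, 22.2% lie under antisense transcripts of the annotation, and whether the counting used strand is not given in the sources used here.

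**Figure D2:**
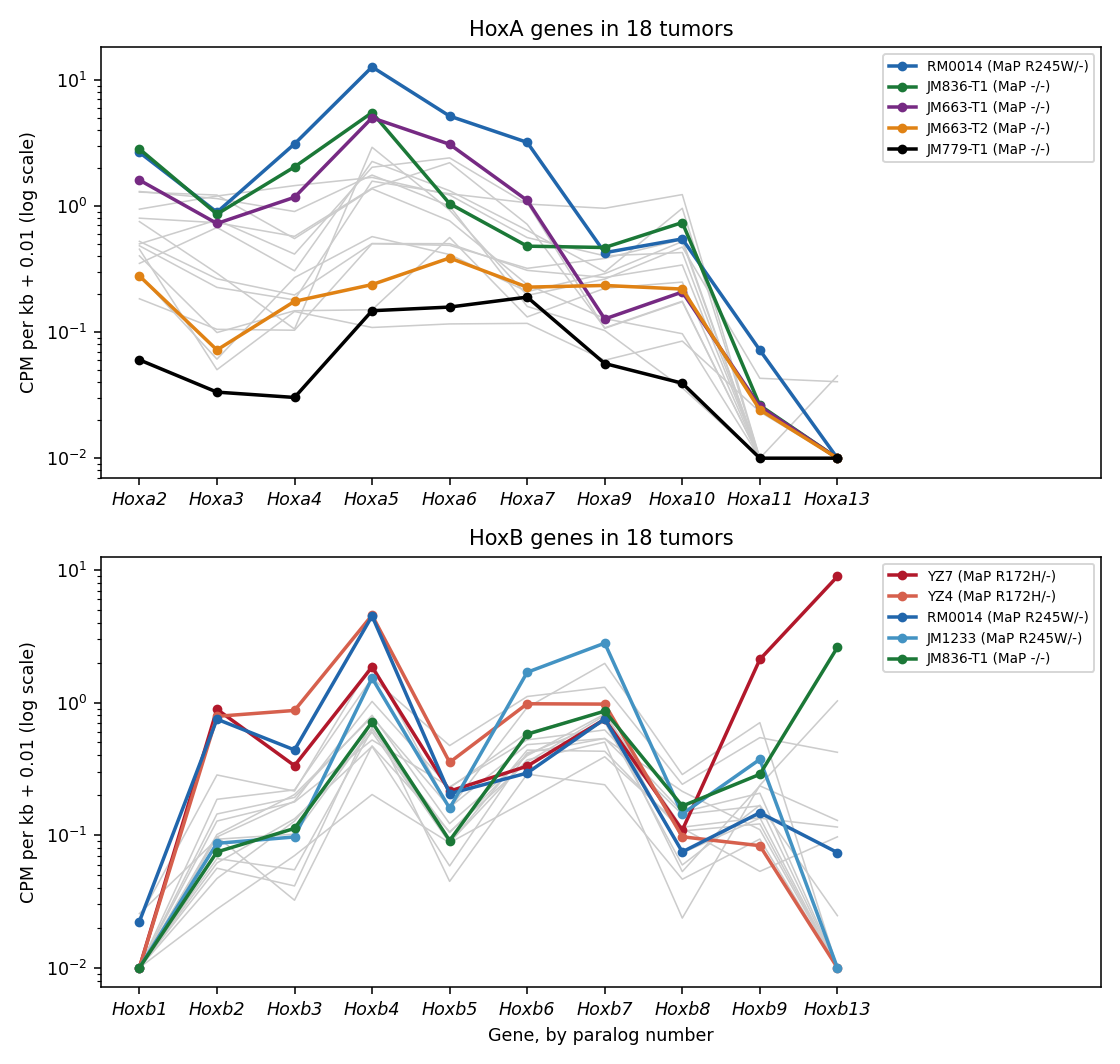
Level of 10 HoxA genes (upper panel) and all HoxB genes (lower panel), in CPM per kb + 0.01 on a log axis, along the paralog numbers, with 1 line per tumor; named tumors are coloured and the others are grey. RM0014 is highest from Hoxa4 to Hoxa7, JM779-T1 is low along HoxA, and YZ7 departs from the other tumors at Hoxb9 (2.11) and Hoxb13 (8.92).

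In HoxB, single tumors led different genes. Hoxb13 (chr11:96085106-96088273, plus strand), the last gene of the cluster and known from prostate and tail development, had 456 counts in YZ7, 155 in JM836-T1, 63 in JM663-T1 and 30 in JM833-T1. No other tumor had more than 7 counts, and 9 of 18 had 0. Per kb its level was 8.92 CPM in YZ7, a MaP R172H/- tumor, against 0.0871 CPM in the next of that group. In the 5 MaP R245W/- tumors it was 0 in JM1233, 0 in JM1564, 0.0639 in RM0014, 0 in JM1126 and 0.119 in JM1133. In the MaP -/- tumors it was 0 at the lowest, 0.258 at the median and 2.60 at the highest. High values thus stood in 1 MaP R172H/- and several MaP -/- tumors. Too few tumors had counts for Hoxb13 to be tested. YZ7, which had low epithelial markers, was also the tumor with the most Hoxb9, at 2.11 CPM per kb against 0.696 in JM1126, the next of the 18. Hoxc13, chosen after its values were seen, had 34 counts in YZ4 and 36 in YZ7, and at most 3 in the other 16 tumors.

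Hoxb9, a factor of rib and mammary gland development, was 0.0433 at the lowest, 0.112 at the median and 2.11 at the highest of the MaP R172H/- tumors. Across the MaP R245W/- tumors it was 0.363 in JM1233, 0.126 in JM1564, 0.138 in RM0014, 0.696 in JM1126 and 0.226 in JM1133. Among MaP -/- tumors it was 0.0835 at the lowest, 0.193 at the median and 0.534 at the highest. The groups overlapped, with YZ7 far above the rest of its group. Without YZ7, the highest MaP R172H/- value was 0.197 CPM per kb, in YZ10. At the other end of the cluster, Hoxb4 (chr11:96209093-96212464, plus strand), known from blood stem cells, was high in 1 tumor of each mutant group. It was 0.457 at the lowest, 0.770 at the median and 4.55 at the highest of the MaP R172H/- tumors, the top being YZ4. Among MaP R245W/- tumors it was 1.52 in JM1233, 0.193 in JM1564, 4.49 in RM0014, 1.98 in JM1126 and 0.461 in JM1133. Over MaP -/- tumors it was 0.616 at the lowest, 0.717 at the median and 1.52 at the highest, which lay inside the range of both mutant groups. Its neighbour Hoxb3 was 0.862 in YZ4 and 0.429 in RM0014, its first and second highest tumors. Hoxb5, the neighbour on the other side, chosen after its values were seen, was highest in JM833-T1, at 0.464, and was 0.344 in YZ4 and 0.195 in RM0014. Antisense transcripts cover 51.5% of the exon bases of Hoxb3.

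Hoxb3 was 0.118 at the lowest, 0.182 at the median and 0.862 at the highest of the MaP R172H/- tumors. Over MaP R245W/- tumors it was 0.0869 in JM1233, 0.0601 in JM1564, 0.429 in RM0014, 0.205 in JM1126 and 0.0223 in JM1133. The level in MaP -/- tumors was 0.0314 at the lowest, 0.0971 at the median and 0.209 at the highest. The lowest MaP R172H/- tumor was above 4 of the 6 MaP -/- tumors, and the groups overlapped. Hoxb7, linked to proliferation in breast cancer cells, was 0.419 at the lowest, 0.612 at the median and 0.964 at the highest of the MaP R172H/- tumors. Its level in MaP R245W/- tumors was 2.80 in JM1233, 0.380 in JM1564, 0.742 in RM0014, 1.96 in JM1126 and 0.791 in JM1133. Across the MaP -/- tumors it was 0.230 at the lowest, 0.777 at the median and 1.29 at the highest. JM1233 and JM1126, the 2 highest tumors, were also among the 3 tumors with the highest skeletal muscle markers. Fold changes of Hoxb7 with a skeletal muscle covariate are given with the comparisons below. Which cells held the Hoxb7 RNA was not tested.

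In HoxC, JM833-T1 was the highest tumor for 5 of 9 genes, Hoxc4, Hoxc5, Hoxc6, Hoxc8 and Hoxc10, while Hoxc9 was highest in YZ11 and the genes numbered 11 to 13 were highest in other tumors. Hoxc8 (chr15:102898851-102902543, plus strand), a factor of trunk identity, was 3.25 CPM per kb in JM833-T1, against 1.37 in JM1126 and at most 0.920 elsewhere. It was 0.257 at the lowest, 0.465 at the median and 0.920 at the highest of the MaP R172H/- tumors. Across the MaP R245W/- tumors it was 0.375 in JM1233, 0.215 in JM1564, 0.294 in RM0014, 1.37 in JM1126 and 0.227 in JM1133. Among MaP -/- tumors it was 0.0641 at the lowest, 0.541 at the median and 3.25 at the highest. JM833-T1 and JM1126 were each far above the rest of their groups. The same 2 tumors led Hoxc6 at 2.41 and 1.63 CPM per kb and Hoxc10 at 1.20 and 1.01. JM833-T1 was also the highest of the 18 tumors for all 9 adipocyte markers, whose part was not tested. Hoxc6, known from mammary gland development, had the highest median of the cluster and was 0.666 at the lowest, 0.889 at the median and 1.31 at the highest of the MaP R172H/- tumors. In MaP R245W/- tumors Hoxc6 was 0.850 in JM1233, 0.331 in JM1564, 0.466 in RM0014, 1.63 in JM1126 and 0.378 in JM1133. Over MaP -/- tumors it was 0.218 at the lowest, 0.653 at the median and 2.41 at the highest. All 3 groups overlapped, and the MaP R172H/- tumors had the narrowest range.

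Hoxc10, expressed in the hind trunk and hindlimb, was 0.220 at the lowest, 0.428 at the median and 0.948 at the highest of the MaP R172H/- tumors. Among MaP R245W/- tumors it was 0.611 in JM1233, 0.272 in JM1564, 0.308 in RM0014, 1.01 in JM1126 and 0.280 in JM1133. The level in MaP -/- tumors was 0.126 at the lowest, 0.285 at the median and 1.20 at the highest. The groups overlapped along most of their range. Of its exon bases, 8.11% are shared with Hoxc5 on the same strand, so reads there may be divided between the pair.

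HoxD was carried by 1 gene, Hoxd8 (chr2:74534959-74538297, plus strand), which acts in trunk patterning. Of its 2944 exon bases, 443 lie under the antisense transcript Hoxd3os1. It made up between 46.4% and 84.7% of the summed HoxD level in every tumor. Hoxd8 was 0.383 at the lowest, 0.624 at the median and 1.01 at the highest of the 7 MaP R172H/- tumors, a range of 25 to 68 counts. Over MaP R245W/- tumors it was 1.92 in JM1233, 0.535 in JM1564, 1.65 in RM0014, 5.92 in JM1126 and 0.842 in JM1133. Across the MaP -/- tumors it was 0.647 at the lowest, 1.49 at the median and 2.81 at the highest, the top in JM663-T2. All 7 MaP R172H/- tumors were below 5 of the 6 MaP -/- tumors, and 3 of them, YZ3, YZ7 and YZ10, lay above JM779-T1, the lowest MaP -/- tumor. JM1126 stood above all other tumors, and the MaP R245W/- tumors JM1564 and JM1133 lay within the MaP R172H/- range.

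The neighbours of Hoxd8 were lower and spread likewise. Hoxd4, which shares 52.0% of its exon bases with other genes of the same strand, Hoxd3 among them, was 0.0951 at the lowest, 0.132 at the median and 0.256 at the highest of the MaP R172H/- tumors. Its level in MaP R245W/- tumors was 0.311 in JM1233, 0 in JM1564, 0.174 in RM0014, 0.355 in JM1126 and 0.0771 in JM1133. Among MaP -/- tumors it was 0.152 at the lowest, 0.244 at the median and 0.570 at the highest. Its MaP -/- values began inside the MaP R172H/- range and ended above it. Hoxd9, a limb and spinal cord gene, was 0.0785 at the lowest, 0.164 at the median and 0.224 at the highest of the MaP R172H/- tumors. In MaP R245W/- tumors Hoxd9 was 0.298 in JM1233, 0.0421 in JM1564, 0.300 in RM0014, 0.566 in JM1126 and 0.0867 in JM1133. Over MaP -/- tumors it was 0.0825 at the lowest, 0.255 at the median and 0.763 at the highest, again with the top in JM663-T2. The highest MaP R172H/- tumor lay below several tumors of both other groups. Hoxd10, which acts in the hindlimb, was at or under 0.213 CPM per kb in the MaP R172H/- tumors. In the other groups Hoxd10 reached 0.258 in JM1126 and 0.426 in JM663-T2. For these 3 genes, counts were few, and all groups overlapped.

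**Figure D3:**
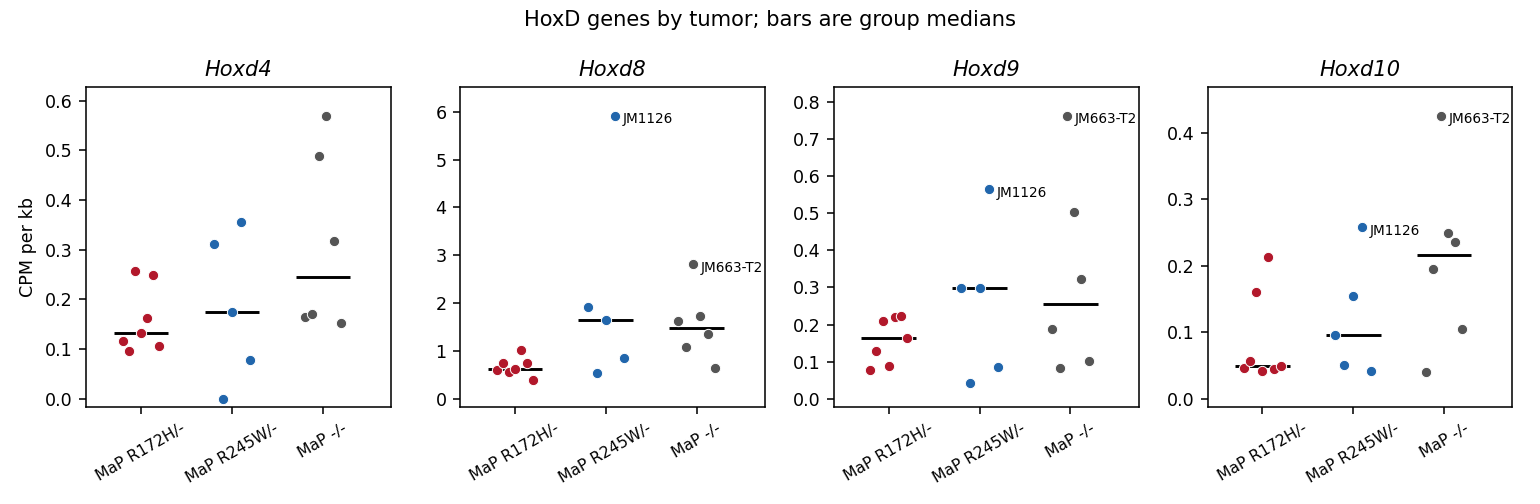
Level of Hoxd4, Hoxd8, Hoxd9 and Hoxd10 in CPM per kb (linear axes, each with its own scale), with 1 point per tumor by group and bars at group medians. The MaP R172H/- points of Hoxd8 sit between 0.383 and 1.01, and JM1126 reaches 5.92.

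Summed over its members, HoxA ran from 0.706 to 29.8 CPM per kb over the 18 tumors, a 42.3-fold span, with a median of 6.87. The span was 13.6-fold for HoxB (1.13 to 15.4, median 2.84), 16.8-fold for HoxC (0.666 to 11.2, median 2.50) and 11.2-fold for HoxD (0.632 to 7.10, median 1.40). Group medians of HoxA were 6.46 in MaP R172H/-, 3.12 in MaP R245W/- and 8.72 in MaP -/- tumors, and without JM1233, JM1564 or JM1126 that of MaP R245W/- tumors was 5.06 to 5.20. Those of HoxD were 1.02, 2.29 and 2.14 in the same order, and the highest MaP R172H/- tumor reached 1.62. The tumor at the top differed between clusters. RM0014 led HoxA, YZ7 led HoxB at 15.4, of which Hoxb13 made up 57.8%, JM833-T1 led HoxC and JM1126 led HoxD. JM779-T1 was lowest for HoxA and HoxC, at 0.706 and 0.666, and had the lowest epithelial marker level of all tumors, whose part was not tested.

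**Figure D4:**
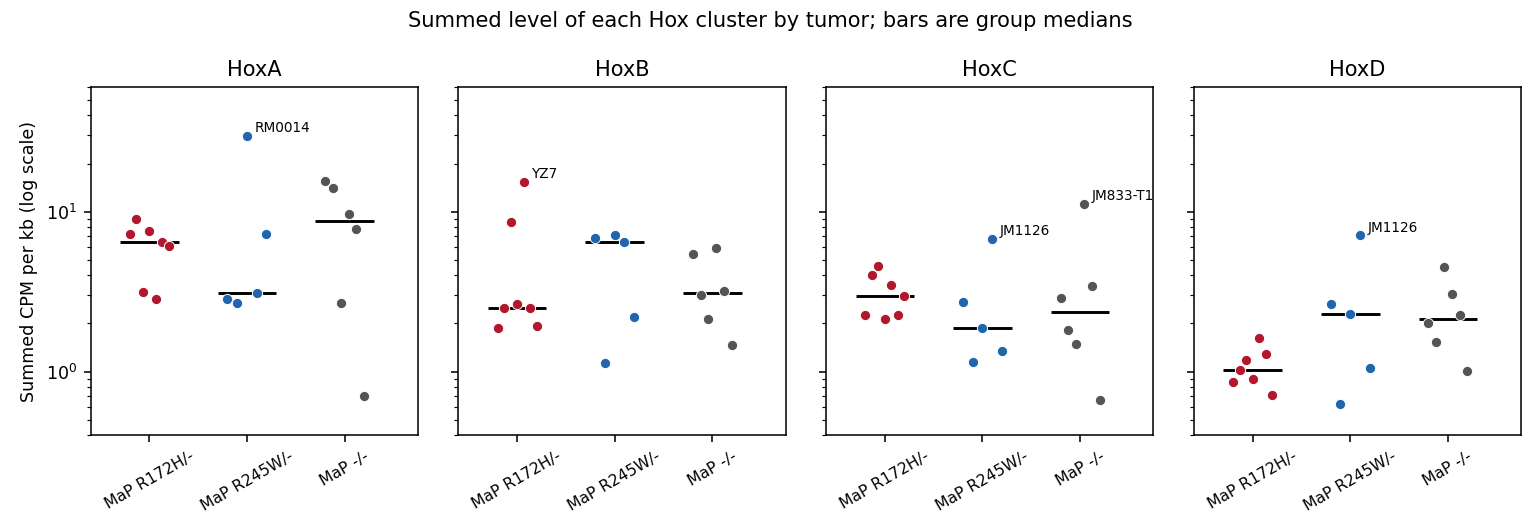
Summed level of each cluster in CPM per kb on a log axis, with 1 point per tumor by group and bars at group medians. All 3 groups overlap in each of the 4 clusters, and the top tumor is RM0014 for HoxA (29.8), YZ7 for HoxB (15.4), JM833-T1 for HoxC (11.2) and JM1126 for HoxD (7.10).

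Neighbouring genes of a cluster varied together across tumors. For the 27 genes that passed the low-count filter over all tumors, Spearman correlations were computed over the 18 tumors after the group means were removed, as a description, since tumors share library depth and composition. Between direct neighbours the median correlation was 0.80 over 23 pairs, all of them above 0, and no such pair shares exon bases in the annotation. Over all 85 pairs of the same cluster the median was 0.57, and over 266 pairs of different clusters it was 0.35. By cluster, it was 0.79 in HoxC, 0.75 in HoxD, 0.48 in HoxA and 0.43 in HoxB. Paralogs of the same number in different clusters had a median of 0.40 over 27 pairs, close to that of other pairs across clusters.

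The 2 tumors of 1 mouse could differ widely. Between JM663-T1 and JM663-T2, both MaP -/-, Hoxa5 was 4.99 against 0.228 CPM per kb, 21.9 times higher in the first. Hoxb13 had 63 counts in the first and 1 in the second tumor. Hoxd8 went the other way, at 1.07 against 2.81, and Hoxd9 was 0.0825 against 0.763. Hoxb4 was nearly level in this mouse, at 0.636 and 0.616. In mouse JM833 the first tumor was higher in HoxC, with Hoxc8 at 3.25 against 0.791, while Hoxa5 differed little, at 2.02 and 2.24. All 9 adipocyte markers were also higher in that first tumor, with Adipoq at 432 against 35.1 CPM, and their part was not tested. With 1 library per tumor, these differences have no replicate check.

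The first comparison asked how MaP R172H/- tumors differ from MaP -/- tumors, whose tumor cells have no p53. Of 39 Hox genes, 24 passed the filter on low counts and were tested with edgeR's quasi-likelihood test, with Benjamini-Hochberg adjustment over 20954 genes. Hoxd8 fell in MaP R172H/- tumors, with a log2 fold change of -1.19 ± 0.32 (SE) and an FDR of 0.0366, and it was the only Hox gene to pass an FDR of 0.05. That 1 gene is 4.17% of the tested Hox genes, while 8.40% of all tested genes passed, and 4.73% passed as lower in MaP R172H/- tumors, so the share of Hox genes was not above the background. The p-values measure the spread between these tumors, and the sequencer differs between these groups. Here and in the comparisons below, the 6 MaP -/- tumors from 4 mice were treated as independent, which they are not. The median log2 fold change of the 24 genes was -0.19 against 0.00 for all tested genes, and 9 were above 0. By cluster, 4 of 6 HoxB genes were above 0, against 2 of 9 in HoxA, 3 of 6 in HoxC and 0 of 3 in HoxD.

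The call of Hoxd8 was close to the threshold. With 1 tumor left out at a time its FDR ran from 0.0162 to 0.0906, and it passed in 3 of 13 fits, those without YZ7, JM663-T1 or JM779-T1, and missed the threshold without any 1 of the other 10 tumors. Under 10 other settings, 1 of them chosen after seeing the data, it passed in 6 and missed in 4, with FDR values from 0.006 to 0.117. Among those that missed, its FDR was 0.0785 with the tumors of 1 mouse summed, 0.102 with a skeletal muscle covariate, and 0.117 in a fit of all 18 tumors. The log2 fold changes in these fits were -1.09, -1.14 and -1.21, about as large as the value above. Without the 3 tumors of lowest epithelial markers, an alternative chosen after seeing the data, it was -1.47 on the log2 scale with an FDR of 0.00970. Beside it, 3 of 10 fibroblast markers fell, namely Pdgfra at -2.49 ± 0.63, Lum at -1.98 ± 0.49 and Fap at -1.19 ± 0.27, and 5 of the 10 were above 0. The summed fibroblast markers ran from 2737 to 8281 CPM in MaP R172H/- and from 4607 to 8326 CPM in MaP -/- tumors, with none at 0. Of 11 immune markers 5 fell, with sums of 594 to 889 CPM against 727 to 2675 CPM. The part of these cells in the Hoxd8 value was not tested.

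At an unadjusted p below 0.05, 3 of 24 Hox genes differed, against 24.7% of all genes. Beside Hoxd8, these were Hoxb3, at 1.41 ± 0.56 with an FDR of 0.141, and Hoxd4, at -0.93 ± 0.39 with an FDR of 0.158. Hoxd9 was -1.01 ± 0.49, with an FDR of 0.223, so all 3 tested HoxD genes had negative values and 1 passed. Hoxb4 was 0.67 ± 0.55 and Hoxb9 was 0.76 ± 0.85, with FDR values of 0.473 and 0.617. Several sizes rested on single tumors: without YZ4, Hoxb3 was 0.75 and Hoxb4 was -0.09, without JM663-T2, Hoxd9 was -0.56, and without YZ7, Hoxb9 was -1.01. Hoxa5 was -1.04 ± 0.75, with an FDR of 0.413. With DESeq2's Wald test 1 Hox gene passed, as did 3432 of 44374 genes with any count (7.73%). That set is wider than the low-count filter kept. Here and below it also holds any gene without an adjusted p, so its share is not read against the Hox count. For no Hox gene did the tumors of the groups fall apart without overlap. The share over all genes was not computed, so this count has no background.

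The second comparison set MaP R245W/- against the same MaP -/- tumors, so both comparisons share controls. Of the 39 genes 25 were tested, and none passed, as 0 of all 21452 tested genes did (0%). At an unadjusted p below 0.05 there were 0 Hox genes and 2527 genes in all, the latter being 11.8%. DESeq2's Wald test called 424 of 43172 genes with any count (0.982%), none of them Hox. The smallest FDR was that of Hoxb7, at 0.552, with a log2 fold change of 0.85 ± 0.55. It was -0.0385 with a skeletal muscle covariate and 0.39 without JM1233, the tumor of highest muscle markers. Hoxb4 was 0.98 ± 0.64, and 0.27 without RM0014, and Hoxd8 was 0.50 ± 0.58. Among the lower values were Hoxc8 at -0.88 ± 0.86, Hoxd10 at -0.79 ± 0.59 and Hoxd4 at -0.76 ± 0.75. The last was -0.44 without JM1564 and -0.50 without JM833-T1, and Hoxd10 was -1.25 without JM1126. For 2 genes the sign depended on 1 tumor: without JM1126, Hoxd8 was -0.31, and without JM833-T1, Hoxc8 was 0.17. The median over the 25 genes was -0.11, against 0.02 for all genes, and 12 were above 0.

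The third comparison set the mutants against each other, in a fit of all 18 tumors. Of 27 Hox genes tested, Hoxd8 alone passed, lower in MaP R172H/- tumors with a log2 fold change of -1.71 ± 0.48 and an FDR of 0.0324. That is 3.70% of the tested Hox genes, against 9.40% of 22481 genes, and 6.49% that passed as lower. The size rested in part on JM1126: without it, Hoxd8 was -0.89 with an FDR of 0.178. It also missed the threshold when any 1 MaP R172H/- tumor other than YZ7 was left out, and passed in 11 of 18 such fits. Under 10 other settings it passed in 6 and missed in 4. In a fit of the 12 mutant tumors alone its FDR was 0.0606, with protein-coding genes alone 0.0519, and with a skeletal muscle covariate 0.0832. The log2 fold changes in these 3 fits were -1.72, -1.65 and -1.73, about as large as the value above. Beside it, 10 of 12 tested skeletal muscle markers passed as lower in MaP R172H/- than in MaP R245W/- tumors. The 15 listed markers summed to 34.3 to 101 CPM in MaP R172H/- and 18.7 to 6369 CPM in MaP R245W/- tumors. In MaP -/- tumors their sums were 25.3 to 142 CPM. Of 10 fibroblast markers 1 passed as lower, Lum at -2.60 ± 0.74, as did 3 of 11 immune markers. The part of fibroblasts and immune cells was not tested.

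Hoxb7 was -1.02 ± 0.45, with an FDR of 0.161, and was the other Hox gene with an unadjusted p below 0.05, against 25.9% of all genes. It was -0.25 with a skeletal muscle covariate and -0.56 without JM1233. Hoxa5 was -1.48 ± 0.97, with an FDR of 0.354, and without RM0014 it was 0.24. The largest positive difference was that of Hoxa3, at 1.35 ± 0.92 with an FDR of 0.373, followed by Hoxb3 at 0.80 ± 0.67. Without RM0014, Hoxa3 was 2.56 and Hoxb3 was 1.59, and without YZ4, Hoxb3 was 0.19. Hoxc6 was 0.32 ± 0.50, with an FDR of 0.731, and ran from 0.14 without JM1564 to 0.86 without JM1126. The standard errors, between 0.449 and 0.972, were as large as the difference itself for most of the genes that did not pass. DESeq2's Wald test called 1 Hox gene, and 3699 of 45551 genes with any count (8.12%). No Hox gene had groups without overlap, and the share over all genes was not computed here either.

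**Figure D5:**
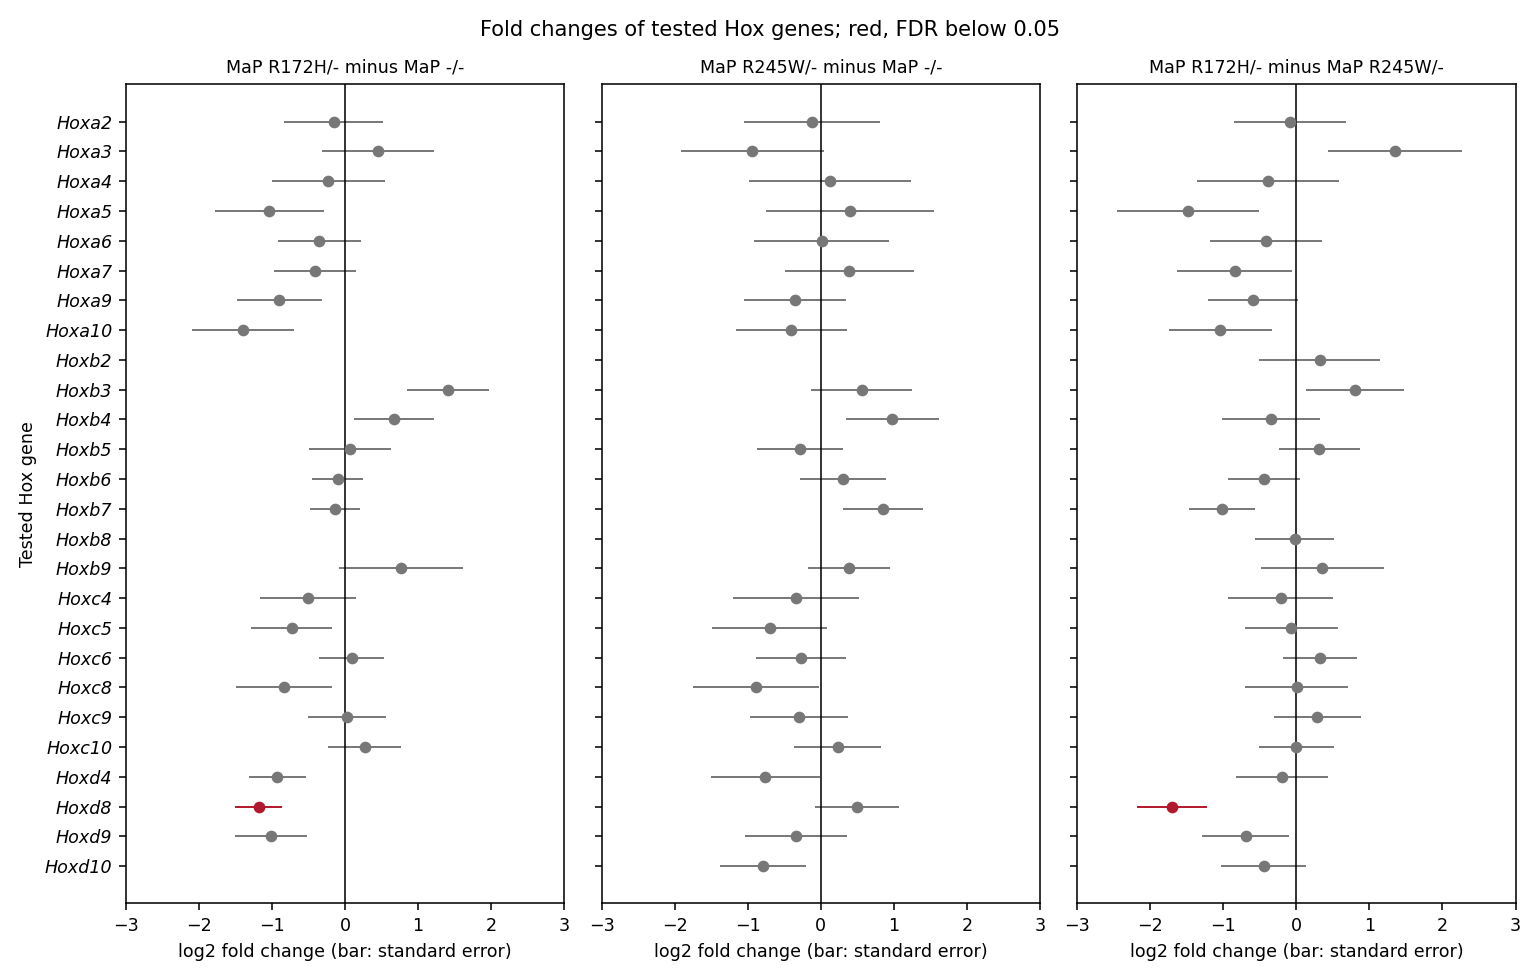
Log2 fold change of tested Hox genes, all but 1, with its standard error (bar) in the 3 comparisons, with genes that passed an FDR of 0.05 in red. Hoxd8 is red in both comparisons with MaP R172H/- tumors, at -1.19 and -1.71, and no gene is red between MaP R245W/- and MaP -/- tumors.

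Genes that act with or on Hox clusters were read from lists. Of all tested genes, 8.40% passed in MaP R172H/- against MaP -/- tumors, 0% in MaP R245W/- against MaP -/- tumors and 9.40% between the mutants. At such shares a short list can hold no passing gene, so counts of none in this paragraph are not read as a result. Of 9 Hox cofactors, Pbx, Meis and Pknox genes, 8 were tested in each comparison and none passed. Pbx2 was 0.33 ± 0.13 in MaP R172H/- against MaP -/- tumors, with an FDR of 0.120. Of 17 noncoding and flanking genes of the clusters, 6 or 7 were tested and none passed. Hotairm1, transcribed from the head end of HoxA, was 0.87 ± 0.46, with an FDR of 0.266, in the same comparison. Halr1, a noncoding RNA gene near HoxA, was named after its values were seen, since it was 10.1 CPM in JM836-T1 and at most 1.17 CPM elsewhere. Hoxaas3, an antisense transcript of HoxA, was -1.11 ± 0.65. Of 15 limb patterning genes, 9 or 10 were tested and none passed, and Tbx15 and Gli3, the highest per kb, were 0.11 ± 0.47 and -0.37 ± 0.33 against MaP -/- tumors.

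Some Polycomb and trithorax genes rose in MaP R172H/- tumors. Of 28 Polycomb subunits, all tested, 5 rose and 0 fell against MaP -/- tumors, against a background of 3.67% of all genes that passed as higher. Pcgf2, a PRC1 subunit, rose by 1.01 ± 0.22, from a mean of 8.96 to 17.8 CPM. Cbx8, Phf1 and Phc1 rose by 0.59 to 0.81 on the log2 scale. Phc2 and Bmi1, the subunits with the highest level per kb, did not pass, at 0.39 ± 0.16 and -0.24 ± 0.21. Against MaP R245W/- tumors 4 rose, Pcgf2, Cbx7, Phf1 and Phc1, where 2.91% of all genes passed as higher. Of 13 trithorax and H3K27 demethylase genes, Men1 rose against MaP -/- tumors, by 0.82 ± 0.13, and Kmt2b, Kmt2d and Kdm6b rose against MaP R245W/- tumors, by 0.66 to 1.16. Ash1l and Kdm6a, the highest per kb, were 0.01 ± 0.15 and 0.24 ± 0.19 against MaP -/- tumors and did not pass. None of either list passed between MaP R245W/- and MaP -/- tumors. Genotype cannot be told apart from sequencer for these rises.

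Of 17 Cdx and retinoic acid genes, 13 were tested against MaP -/- tumors and 2 rose in MaP R172H/- tumors, where 3.67% of all genes passed as higher. Against MaP R245W/- tumors 1 of 14 tested genes rose, where 2.91% of all genes passed as higher. Rara, a retinoic acid receptor, rose by 1.16 ± 0.26 against MaP -/- tumors and by 0.93 ± 0.29 against MaP R245W/- tumors, with FDR values of 0.0150 and 0.0496. Its level was 35.5 at the lowest, 74.4 at the median and 113 CPM at the highest of the MaP R172H/- tumors. In MaP -/- tumors Rara was 24.7, 35.9 and 42.6 CPM in the same order. Rxrb, of the partner family of these receptors, rose by 0.47 ± 0.13. Rarg and Rxra, the highest of the list per kb, were 0.74 ± 0.37 and 0.35 ± 0.20 and did not pass. Cdx1, Cdx2 and Cdx4, which open Hox clusters in the embryo, had at most 10 counts in any tumor. The median log2 fold change of the 13 genes tested against MaP -/- tumors was 0.35, against 0.00 for all genes. Genotype cannot be told apart from sequencer for these values.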

How the data were processed

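RNA was measured in 18 mouse mammary tumors as total RNA after ribosomal depletion, with a stranded kit. The authors aligned reads with STAR 2.7.10b to GRCm39 and quantified GENCODE M34 genes with RSEM 1.3.3, and deposited whole-number raw counts per gene, not normalized. Whether RSEM was set to use strand is not given in the sources used here. Gene names, positions and exon lengths came from GENCODE M39 by gene ID, which matched 56620 of 57126 rows.

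Groups came from the labels. MaP R172H/- and MaP R245W/- tumors were each fitted separately with MaP -/- tumors, and compared with each other in a fit of all 18 tumors, with edgeR 4.0.16 (TMM, filterByExpr, quasi-likelihood test) and Benjamini-Hochberg adjustment over all genes tested, FDR below 0.05. DESeq2 1.42.0 was an alternative. The fit was tested on simulated counts. Levels are TMM-scaled CPM divided by exon length in kb. Other alternatives were filters, covariates, summed mice and each tumor left out. Tumors of a group were compared pairwise, and no pair agreed within sampling noise (smallest chi-square per degree of freedom 82.4). The floor was fixed at 3 counts, and its value in CPM follows from the library size (total counts of 23113578 to 37365062). The members and gene lists were chosen with earlier results of these data known. Named Hox genes were those that passed, the 3 smallest p-values in each direction of each comparison, the 2 highest medians per cluster, and genes with 1 tumor at 5 CPM per kb or more and 5 times the median of the others. From the lists, genes that passed and the 2 of highest level per kb were named, and 1 Hox gene, 1 cofactor and 1 Polycomb gene among them are counted in totals and not reported here.

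Marker lists not given above were also tested. Against MaP -/- tumors, 0 of 9 adipocyte, 0 of 6 basal, 0 of 12 epithelial and 1 of 7 endothelial markers passed in MaP R172H/- tumors. Of all tested genes 8.40% passed there. Values above 0 were 0 of 9 adipocyte (median log2 fold change -3.31) and 6 of 6 basal (2.71). For epithelial markers they were 12 of 12 (1.29), and for endothelial markers 0 of 7 (-0.25). Against MaP R245W/- tumors none passed, and in the same order 9 of 9 (3.57), 6 of 6 (2.92), 8 of 12 (0.31) and 0 of 7 (-0.31) were above 0. The part of these cells in the Hox values was not tested.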

Additional observations from a re-analysis of the deposited data

Results flagged for a closer look

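Single tumors stood apart from the rest of their group in 15 of 57 checks of a named Hox gene or cluster sum within a group, by the gap to the nearest tumor over the group's range. Chance gives about 1 in 20 of independent checks. These checks are not independent, and some genes were named for a single high tumor, so the count is not read against chance. In RM0014 (MaP R245W/-) these were Hoxa3 at 0.881, Hoxa5 at 12.6 and Hoxa6 at 5.15 CPM per kb, and the HoxA sum at 29.8. In YZ4 (MaP R172H/-) these were Hoxb3 and Hoxb4 at 0.862 and 4.55. In YZ7 (MaP R172H/-) they were Hoxb9 at 2.11 and Hoxb13 at 8.92. In JM833-T1 (MaP -/-) they were Hoxc6 at 2.41, Hoxc8 at 3.25 and Hoxc10 at 1.20, and the HoxC sum at 11.2. In JM1126 (MaP R245W/-) they were Hoxc8 at 1.37 and Hoxd8 at 5.92, and the HoxC sum at 6.76.

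The log2 fold change of Hoxd8 against MaP -/- tumors differed between the mutants, with a difference of -1.71 (edgeR, FDR 0.0324). That is the test of the third comparison read another way, not a further result. Without JM1126 the difference was -0.89, with an FDR of 0.178.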

How the results depend on the processing

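The count of Hox genes passing in MaP R172H/- against MaP -/- tumors was 0 with a log2 fold change above 2, no filter on low counts, a skeletal muscle covariate, tumors of 1 mouse summed or 1 fit of all 18 tumors, and 0 to 1 with 1 tumor left out. Between the mutants it was 0 with a log2 fold change above 2, no filter, protein-coding genes only, a skeletal muscle covariate or the 12 mutant tumors alone, and 0 to 1 with 1 tumor left out. Between MaP R245W/- and MaP -/- tumors it was 0 under every alternative run. Against MaP -/- tumors, Hoxb4 in MaP R172H/- became -0.0854 without YZ4, and Hoxb9 became -1.01 without YZ7, -0.95 with DESeq2, which replaces outlier counts in groups of 7 or more, and -1.18 without the 3 tumors of lowest epithelial markers, an alternative chosen after seeing the data. In MaP R245W/-, Hoxb7 became -0.0385 with a muscle covariate, Hoxd8 -0.31 without JM1126 and Hoxc8 0.17 without JM833-T1. Between the mutants, Hoxa5 became 0.24 without RM0014. With 1 tumor left out, these values ran from -0.0854 to 0.906 for Hoxb4 and from -1.01 to 1.19 for Hoxb9 (MaP R172H/- against MaP -/-), from -1.70 to 0.17 for Hoxc8 and from -0.31 to 0.754 for Hoxd8 (MaP R245W/- against MaP -/-), and from -1.80 to 0.24 for Hoxa5 (between the mutants). The causes were not tested. Genes reaching the level threshold were 12 at 2 CPM per kb and 17 to 20 with 1 tumor left out. Without Hoxb4 the median HoxB sum of MaP R245W/- tumors was 2.67, and without Hoxd8 the HoxD median was 0.326 in MaP R172H/- and 0.687 in MaP -/- tumors. No paired analysis was possible because replicate numbers only name tumors. Few counts limit the genes numbered 11 to 13.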
